A study of Homo sapiens with 18 samples.

Results

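The interaction of imatinib and JQ1 was measured in GIST-T1, a human cell line from a gastrointestinal stromal tumor (GIST), as the departure of the drug combination at 24 h from the sum of the 2 single drugs. For each gene the departure is the mean log2 level with both drugs, minus that with imatinib, minus that with JQ1, plus that with the solvent DMSO. It uses 12 of the 18 RNA-seq libraries of the series, 3 in each of 4 groups: DMSO, imatinib at 500 nM for 24 h, JQ1 at 500 nM for 24 h, and both drugs for 24 h. All cells were GIST-T1, which the labels call dependent on the receptor KIT, the labels give no time for DMSO, and nothing says whether the 3 libraries of a group came from separate cultures, so each p-value measures only the spread between libraries. Of 23621 genes in the table, 12771 passed the filter of at least 1 FPKM in at least 3 of the 18 libraries and were tested, and all of them entered the interaction. FPKM is fragments per kilobase of transcript, scaled for the reads of a library, here on a scale in which spike-in RNA added in relation to cell number is level between libraries. Log2 levels are of FPKM + 1, so a departure of 0 means that the drugs' fold changes of FPKM + 1 multiply. A departure above 0 means that the combination lay above that product, and one below 0 that it lay under it.

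GIST cells depend on signaling from KIT, a receptor tyrosine kinase that drives the RAS and ERK cascade and PI3K. Imatinib blocks the kinase, which silences ERK-driven transcription and lets FOXO transcription factors, which PI3K and AKT keep out of the nucleus, reach their target genes. JQ1 displaces the BET proteins from acetylated chromatin and lowers transcription from strong enhancers. The title of the series names enhancers of KIT as a target of BET inhibition, so the combination places a block of the kinase on top of a block of transcription. The defining markers KIT, ANO1, ETV1, FOXF1 and HAND1 were all well above the filter in DMSO. Of the markers of other cells, 3 of 10 epithelial, 2 of 10 leukocyte, 1 of 10 endothelial and 5 of 12 neural and glial genes passed it, and of these KRT18 (epithelial, 1.25) and TUBB3 (neural, 1.5) were called above the sum on the rescaled scale described below.

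Both drugs lowered most transcripts, and the combination lowered them by much less than the product of the single drugs. The median tested gene stood at 25.2 FPKM in DMSO, 7.45 with imatinib, 7.53 with JQ1 and 4.59 with both. Imatinib changed it from DMSO by -1.5 in log2, JQ1 by -1.49 and the combination by -2.05, where the median of the added single changes was -3.01. The median of the departures, taken gene by gene, was 0.95, and 91% of tested genes had a departure above 0. The combination still lay under both single drugs at 88.1% of genes, so a departure above 0 mostly marks a smaller additional fall, and only 0.5% of genes were higher with both drugs than with either one. In bulk RNA scaled to counted cells, fewer living cells among those counted and less RNA per living cell cannot be told apart.

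The summed FPKM showed the same order as the median gene. It averaged 2208396 in DMSO, 480241 with imatinib, 627205 with JQ1 and 380660 with both, where adding the log2 changes of the totals gives 136901. The departure of the log2 total was 1.44, and 1.12 when the rows of the microRNA gene MIR1244 were left out of the total. The combination libraries were at 286566, 499857 and 355558, with replicate 2 the highest. On this scale the spike-ins are level, with sums between 6505 and 6948 in all 4 groups. The 24 spike-ins with a mean of at least 5 had a median departure of 0.04, with single ones from -1.25 to 0.34.

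On the deposited scale 5974 genes, 46.8% of those tested, were called above 0 (adjusted p below 0.05 by limma with Benjamini-Hochberg adjustment and a departure of at least 1), and 119 genes, 0.932%, were called below 0. Because the whole distribution sat at 0.95, each library was also rescaled by the median of its gene ratios, which moved the median departure to 0.01 and left gene-specific departures. On that rescaled scale 624 genes, 4.89%, were called above 0 and 745 genes, 5.83%, below 0. All 624 were also called above 0 as deposited, and 116 of the 745 were called below 0 as deposited. The split depends on the scaling: rescaling to one total gave 230 above and 1850 below, and to one total without the MIR1244 rows 487 above and 976 below. Below, each departure is given on the deposited scale first and then on the rescaled one. Counts of list members called are to be read beside the shares of all tested genes. These were 46.8% above and 0.932% below as deposited, and 4.89% above and 5.83% below after rescaling.

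**Figure D1:**
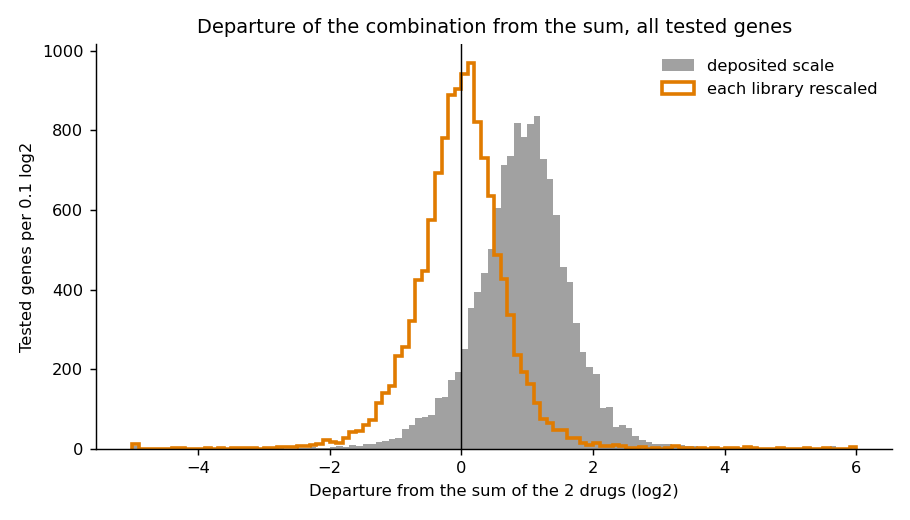
Number of tested genes (vertical axis) by departure from the sum of the 2 drugs in log2 (horizontal axis), as deposited (grey) and after each library was rescaled (orange line), with values beyond the axis in the end bars. The grey distribution is centred on 0.95 and the orange one on 0.01.

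At the median, the genes called above 0 after rescaling were low with either drug alone, and lower with imatinib than with JQ1. Their median level was 71.5 FPKM in DMSO, 6.01 with imatinib, 9.91 with JQ1 and 5.33 with both, so JQ1 on top of imatinib took away little. Those called below 0 were, at the median, held up by imatinib: their medians were 7.21 in DMSO, 8.32 with imatinib, 4.33 with JQ1 and 2.93 with both. The levels that form these medians also form the departure, so they describe the calls and are no test. The added 1 also sets a limit. For 1942 of the 12771 tested genes the sum predicts less than 0 FPKM on the log2(FPKM + 1) scale used, which the combination cannot reach. A product of plain FPKM fold changes is never under 0, so this limit comes from the added 1. Such genes, taken by their deposited values, make up 1251 of the 5974 deposited calls above 0 (20.9%) and 273 of the 624 rescaled ones (43.8%). The expected level was not computed after rescaling, so the 273 do not show how many rescaled calls meet this limit. Of the genes named in this text, AEN, CCL2, CCND1, CCNE2, CTGF, CXCL10, CYR61, DUSP6, EGR1, ETV4, ETV5, FRG2, FRG2B, HK2, KITLG, LYAR, MCM10, MYC, MYCN, NME1-NME2, NOP2, OAS1, OAS2, PCDH12, PMAIP1, RASL11A, RRS1, SLC7A5, SPRY4, STC2, TNFRSF12A and XAF1 had such an expected level under 0.

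**Figure D2:**
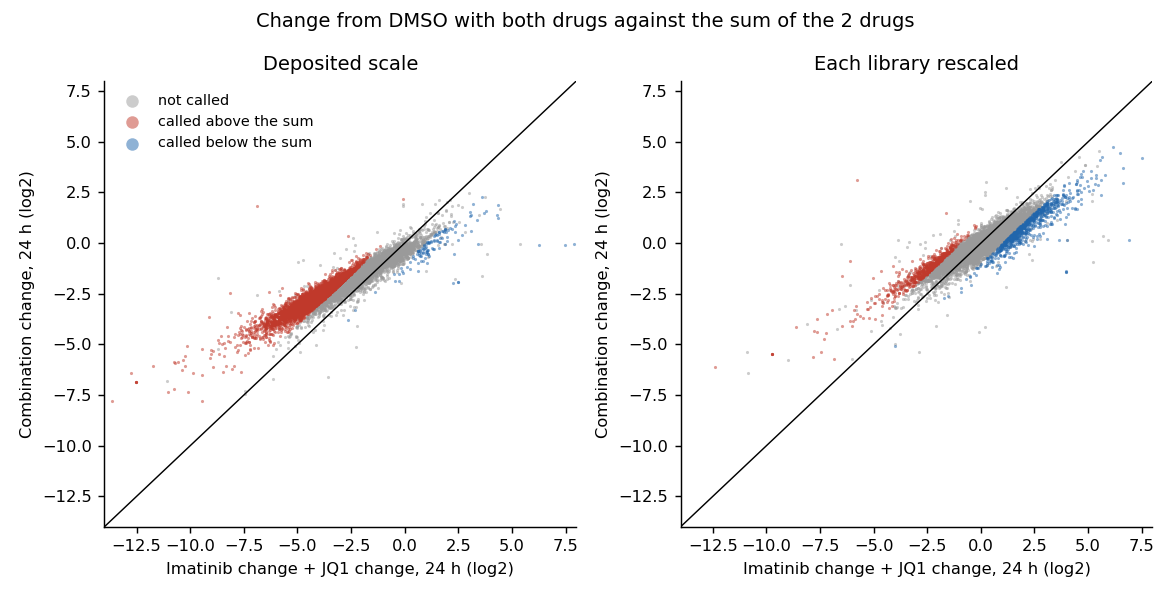
Log2 change from DMSO with both drugs (vertical) against the added changes of imatinib and JQ1 (horizontal) for each tested gene, as deposited (left) and rescaled (right), with genes called above the sum in red and below it in blue. On the left 5974 red genes lie above the line of equality, and on the right 624 red genes lie at the low end and 745 blue genes at the high end.

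Several of the largest departures above 0 were in genes of the ERK pathway output. ETV5, an ETS-family factor induced by ERK, had 200, 243 and 295 FPKM in DMSO, 0.575, 0.556 and 0.516 with imatinib, 24.5, 28.3 and 33.9 with JQ1, and 2.67, 4.93 and 3.32 with both. The groups did not overlap, and the combination sat between the drugs, above imatinib alone and below JQ1 alone. Imatinib took ETV5 448-fold below DMSO and both drugs 67.6-fold. The departure was 4.59 ± 0.26 (SE, limma, adjusted p = 8.35e-12) and 3.68 after rescaling, and the combination was called higher than imatinib by 1.55. The expected level of ETV5 was under 0, but the direction against imatinib alone does not rest on it.

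ETV4, its close relative, had 61.2, 72.1 and 94.2 FPKM in DMSO, 1.62, 1.82 and 2.32 with JQ1, and fell to 0.215, 0.206 and 0.138 with imatinib. With both drugs it had 0.195, 0.391 and 0.192, which overlaps imatinib alone. Its departure was 4.79 (3.45 rescaled), and it comes with an expected level under 0 and 1 of 3 imatinib libraries within 2 times the lowest level of that library.

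EGR1, an immediate early zinc-finger factor, behaved like ETV5. It had 22.2, 23.4 and 31.6 FPKM in DMSO, 0.546, 0.471 and 0.551 with imatinib, 4.05, 5.37 and 7.39 with JQ1, and 1.86, 3.19 and 2.12 with both. The combination was called higher than imatinib by 1.14, with no overlap of libraries, and the departure was 3.17 (2.30 rescaled). TNFRSF12A, the receptor of the cytokine TWEAK and an early growth factor response gene, had 57.2, 75.0 and 99.5 FPKM in DMSO, 0.949, 1.12 and 1.10 with imatinib, 15.6, 17.1 and 19.3 with JQ1, and 4.41, 9.33 and 5.38 with both. It too was called higher with both drugs than with imatinib, by 1.79, at a departure of 3.85 (2.96 rescaled). ETV5, EGR1 and TNFRSF12A thus share one order: DMSO highest, then JQ1, then both, with imatinib alone lowest.

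The feedback inhibitors of the same pathway had another order. DUSP6, the phosphatase that switches ERK off, had 181, 238 and 306 FPKM in DMSO, 1.01, 1.0 and 1.05 with imatinib, 9.96, 13.3 and 14.7 with JQ1, and 0.417, 0.416 and 0.471 with both. SPRY4, a Sprouty inhibitor of receptor signaling, had 172, 202 and 261 FPKM in DMSO, 2.15, 2.51 and 2.40 with imatinib, 8.84, 10.9 and 12.9 with JQ1, and 0.287, 0.361 and 0.236 with both. In both genes the combination was the lowest group with no overlap. The departures were 3.64 (2.19 rescaled) for DUSP6 and 2.78 (1.14 rescaled) for SPRY4, and both expected levels were under 0. SPRY4 lost its rescaled call with a smaller added constant, at 0.41 with 0.1 and 0.26 with 0.01, while DUSP6 kept its call.

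CCND1, cyclin D1, fell further with the combination than with either drug, from 56.9, 72.8 and 91.9 FPKM in DMSO to 12.4, 12.4 and 12.3 with imatinib, 3.47, 4.58 and 4.81 with JQ1, and 1.07, 2.07 and 1.52 with both. Its departure was 1.40 as deposited and 0.15, not called, after rescaling. Of the 24 genes listed as ERK pathway output, 21 were tested: 17 were called above 0 and 0 below as deposited (median 1.66), and 9 above and 0 below after rescaling (median 0.59, against 0.01 over all genes).

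Other genes with the largest rescaled departures above 0 had been high in DMSO and nearly lost with imatinib. RASL11A, a small RAS-like GTPase, had 210, 268 and 325 FPKM in DMSO, 1.95, 2.48 and 2.44 with imatinib, 14.0, 16.7 and 20.7 with JQ1, and 3.48, 6.10 and 4.45 with both. The combination lay above imatinib in every library, by 0.77, which was not called, and its departure was 4.65 (3.63 rescaled). PCDH12, a protocadherin, was at 56.4, 66.9 and 86.1 FPKM in DMSO, at 1.05, 1.37 and 1.94 with JQ1 and at 0.133, 0.211 and 0.193 with both, under imatinib (0.301, 0.422, 0.296) in each library, with a departure of 4.66 (3.26 rescaled).

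MYCN, the MYC family member of these cells with the higher level in DMSO, had 107, 123 and 168 FPKM in DMSO, 1.56, 1.90 and 1.83 with imatinib, 3.35, 3.37 and 4.27 with JQ1, and 0.480, 0.985 and 0.661 with both. Each drug alone removed almost all of it, the combination was lowest, and the departure was 4.12 (2.77 rescaled) with an expected level under 0. MYC itself was low, at 3.76, 4.33 and 5.21 FPKM in DMSO, 2.17, 2.02 and 2.07 with imatinib, 0.481, 0.58 and 0.869 with JQ1, and 0.688, 0.738 and 0.611 with both. Its combination libraries lay within the range of JQ1 alone, and its departure of 0.84 ± 0.19 was not called, nor was -0.01 after rescaling. With an added constant of 0.1 or 0.01 in place of 1, the deposited MYC value became a call, at 1.14 and 1.19.

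CXCL10, an interferon-induced chemokine, had 56.7, 74.0 and 85.0 FPKM in DMSO and 2.68, 3.14 and 2.76 with JQ1. In 2 of the 3 imatinib libraries and all 3 combination libraries it lay within 2 times the lowest level of the library. Its rescaled departure of 2.60 thus rests on values near those levels. CCL2, a monocyte chemokine, went from 40.2, 53 and 63.1 FPKM in DMSO to 1.66, 1.13 and 1.45 with imatinib, 1.16, 1.36 and 1.48 with JQ1, and 0.204, 0.587 and 0.199 with both, at a departure of 3.62 (2.17 rescaled). Of the 7 NF-kB and cytokine genes tested, CCL2 was the 1 called above 0 after rescaling, and NFKBIA, the inhibitor of NF-kB, the 1 called below, at -1.03 (3 above and 0 below as deposited). The rescaled median of this list, 0.16, turned to -0.13 under one total. STC2, the secreted stress glycoprotein stanniocalcin, had 34.2, 44.1 and 51.7 FPKM in DMSO, 1.22, 1.2 and 1.2 with imatinib, 0.522, 0.664 and 0.755 with JQ1 and 0.120, 0.154 and 0.130 with both, at 3.78 (2.29 rescaled). FRG2 and FRG2B also had large departures, of 3.92 and 3.98, but they are near-identical copies whose reads cannot be separated with certainty, and the readthrough gene NME1-NME2 shares its reads with its parts. FRG2B lay within 2 times the lowest level of the library in 1 imatinib library, and NME1-NME2 in 1 imatinib and 1 JQ1 library.

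**Figure D3:**
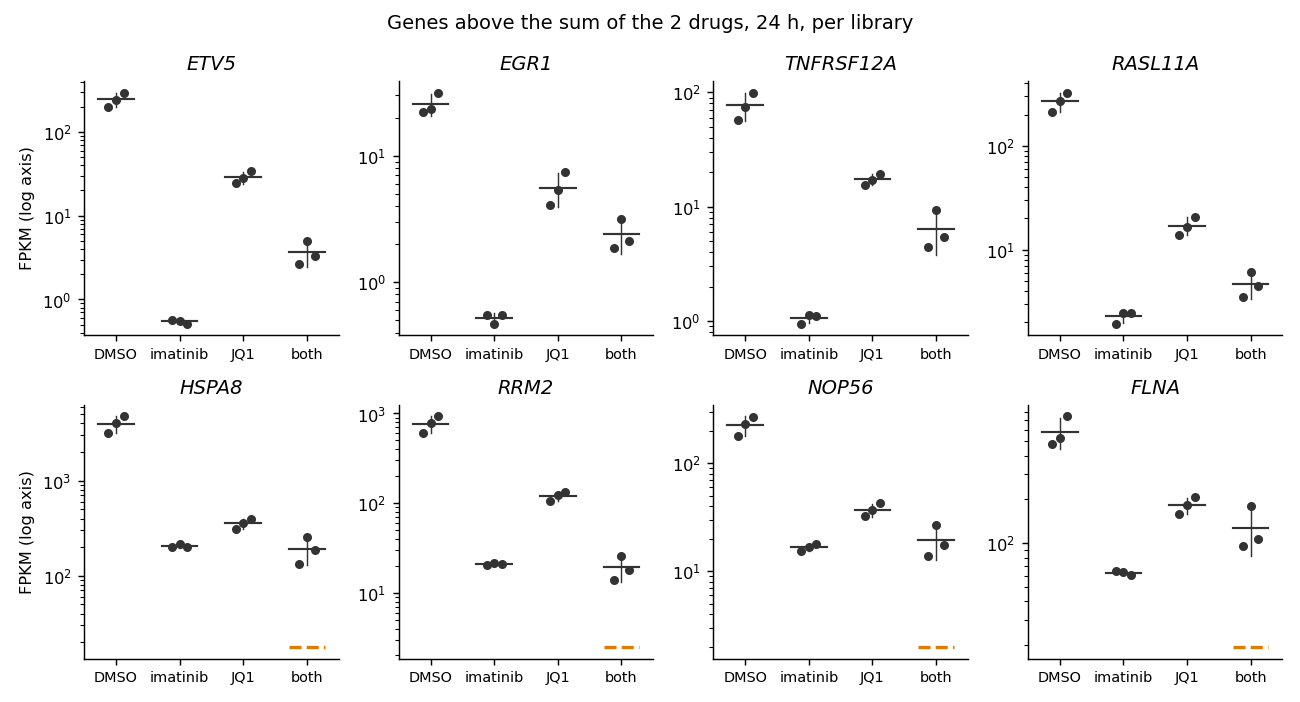
FPKM on a log axis in each library for 8 genes above the sum, by group, with the mean as a bar and the SD as a line; the dashed orange bar is the level expected from the sum, absent where that is under 0. ETV5, EGR1 and TNFRSF12A lie higher with both drugs than with imatinib alone, while HSPA8 and RRM2 lie near imatinib and far above their expected 17.7 and 2.47 FPKM.

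Ribosome biogenesis genes, many of them MYC family targets, were, with heat shock genes, the lists with the highest rescaled medians. All 30 were called above 0 as deposited (median 2.17), and 21 above and 0 below after rescaling (median 1.14). NOP56, a core protein of the box C/D particles that modify ribosomal RNA, had 179, 229 and 271 FPKM in DMSO, 15.3, 16.7 and 17.8 with imatinib, 32.2, 36.9 and 42.4 with JQ1, and 13.8, 26.6 and 17.6 with both. The combination libraries spanned the imatinib values, against an expected 1.97 FPKM, and the departure was 2.73 ± 0.28 (1.71 rescaled). LYAR, a nucleolar factor, went from 67.2, 80.9 and 105 FPKM in DMSO to 3.70, 4.33 and 3.95 with imatinib, 8.02, 9.28 and 10.3 with JQ1 and 4.08, 7.87 and 5.18 with both, and had the largest rescaled departure of the list, 2.43. RRS1 and NOP2, both needed for large-subunit assembly, stood at 2.25 and 2.15 rescaled. The ribosomal proteins themselves did not share this: of 34 cytosolic ribosomal protein genes 8 were called above 0 as deposited, 0 were called in either direction after rescaling, and the median was 0.89, or -0.12 rescaled.

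Heat shock and protein folding genes had the highest rescaled median of the lists, 1.22, with 13 of 22 called above and 0 below (19 above and 0 below as deposited, median 2.23). HSPA8, the constitutive HSP70 chaperone, had 3200, 4010 and 4740 FPKM in DMSO, 201, 218 and 200 with imatinib, 311, 358 and 398 with JQ1, and 134, 253 and 185 with both. Imatinib alone brought it 19.3-fold below DMSO and both drugs 20.9-fold, where the sum predicts 17.7 FPKM, and the departure was 3.31 ± 0.28 (2.29 rescaled). HSPH1, an HSP70 nucleotide exchange factor, went from 394, 483 and 593 FPKM in DMSO to 28.8, 31.4 and 29.9 with imatinib, 43.8, 49.1 and 54.8 with JQ1 and 17.6, 31.4 and 22.8 with both, at 2.92 (1.90 rescaled). CCT5, a subunit of the TRiC chaperonin, stood at 2.75 (1.73 rescaled), and HSPA1A, at 2.78 (1.76 rescaled), shares reads with a near-identical copy.

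Replication and mitosis genes also lay above the sum. Of 37 DNA replication and E2F target genes, 36 were called above 0 as deposited (median 2.00) and 18 above and 0 below after rescaling (median 0.98). RRM2, the small subunit of ribonucleotide reductase, had 608, 779 and 926 FPKM in DMSO, 20.2, 21.7 and 20.7 with imatinib, 105, 124 and 132 with JQ1, and 13.9, 25.8 and 17.9 with both. The combination and imatinib alone overlapped, at 40.2-fold and 37.0-fold below DMSO, and the departure was 2.50 ± 0.27 (1.47 rescaled). The loading factor CDC6 (1.76 rescaled), the cyclin CCNE2 (2.12) and MCM10 (1.41) were further members called. All 30 mitosis genes were called above 0 as deposited (median 1.63), but 3 after rescaling (median 0.60): the anaphase activator CDC20 at 1.21 and the kinases PLK1 at 1.15 and AURKA at 1.05. Under one total 5 of the replication genes and 0 of the mitosis genes were called above 0, so the size of both counts rests on the scaling, while their medians stayed above 0 at 0.57 and 0.19. Of the genes named here as called after rescaling, SPRY4, VCL, ENO1, CDC20, PLK1, AURKA, SRSF1 and KRT18 stood between 0.60 and 0.91 under one total, short of a call.

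Metabolic and stress lists were mixed. Of 19 glycolysis genes 3 were called above 0 after rescaling and 0 below (14 and 0 as deposited): HK2, hexokinase, went from 21.2, 26.5 and 30.5 FPKM in DMSO to 0.639, 0.643 and 0.594 with imatinib, 1.84, 2.26 and 3.16 with JQ1 and 0.599, 1.01 and 0.848 with both, at 3.14 (2.05 rescaled). The glucose transporter SLC2A1 stood at 2.42 (1.43 rescaled) and ENO1, enolase, at 2.24 (1.22 rescaled). Of 21 ATF4 and amino acid response genes 4 were called above 0 and 1 below after rescaling (17 and 0 as deposited). The amino acid transporter SLC7A5 was above it at 3.37 (2.37 rescaled) and the mitochondrial folate enzyme MTHFD2 at 2.84 (1.83 rescaled), while DDIT4, the stress-induced inhibitor of mTORC1, stood at -0.63, not called, and -1.63 rescaled.

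Of 27 oxidative phosphorylation genes, 0 were called in either direction after rescaling and 18 above 0 as deposited, and their rescaled median of 0.19 turned to -0.24 under one total. Of 27 splicing factor genes 4 were called above 0 after rescaling and 0 below (26 and 0 as deposited), with SRSF2, an SR protein of splice site choice, at 1.6 and SRSF1 at 1.01. Of 31 interferon response genes 6 were called above 0 and 0 below after rescaling (21 and 0 as deposited), and the rescaled median of 0.21 turned to -0.10 under one total. XAF1, an interferon-induced proapoptotic factor, and the RNA sensors OAS1 and OAS2 were among them, at 1.96, 1.79 and 1.79. In 3, 2 and 3 combination libraries they lay within 2 times the lowest level of the library, as XAF1 and OAS2 each did in 1 JQ1 library.

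Contractile and matrix genes were called on both sides after rescaling, and 2 immediate early genes above the sum. FLNA, the actin crosslinker filamin A, had 478, 526 and 744 FPKM in DMSO, 64.7, 63.5 and 60.8 with imatinib, 160, 182 and 207 with JQ1, and 95.9, 181 and 108 with both. Every combination library lay above every imatinib library, by 0.96, which was not called, and the departure was 2.61 ± 0.28 (1.6 rescaled). VCL, vinculin, stood at 2.32 (1.32 rescaled). CTGF and CYR61, matricellular targets of YAP, stood at 2.86 (1.90 rescaled) and 2.52 (1.58 rescaled), and FBN1, fibrillin, at 2.55 (1.56 rescaled). TUBB3, a tubulin listed here as a neural marker, was the only one of the 5 tested neural and glial genes called after rescaling (1.5), and it was called higher with both drugs than with imatinib, by 1.09. MYLK, the myosin light chain kinase, went the other way from the same contractile list, with 7.92, 8.96 and 10.6 FPKM in DMSO, 25.1, 30.4 and 26.5 with imatinib, 9.83, 10.1 and 11.4 with JQ1, and 7.35, 12.3 and 8.97 with both, at -1.63 (-2.48 rescaled). Of the 13 contractile genes tested, 2 were called above and 2 below after rescaling (8 and 1 as deposited). Of 19 extracellular matrix genes 4 were called above and 1 below after rescaling (9 and 0 as deposited). Over all tested genes 46.8% were called above as deposited, and 4.89% above and 5.83% below after rescaling. The 9 matrix genes above as deposited and the 1 below after rescaling are near those shares. Of 13 immediate early genes, EGR1 and CYR61 were the 2 called above after rescaling, with 0 below (9 and 0 as deposited). Under one total 2 immediate early genes were called above and 1 below.

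Promoters of the called genes were searched in the 250 bases before each RefSeq start (GRCh38.p14), on both strands, for 9160 tested genes that matched. The ETS motif CCGGAAGT was in 7.38% of the promoters of tested genes, in 7.61% of the 460 of genes called above 0 after rescaling, and in 1.0% of the 498 of genes called below 0. Over all 27305 promoters of that length its share was 3.64%. The CArG box, the serum response factor motif, was in 1.02% of tested promoters, 2.17% of those above and 0.803% of those below, and in 1.14% of all. The FOXO motif TGTTTAC was in 1.86% of tested promoters, 2.39% above and 3.21% below, and in 2.98% of all. The E-box CACGTG was in 9.0% of tested promoters, 8.48% above and 6.63% below, and in 6.49% of all. The cAMP response element TGACGTCA was in 3.03% of tested promoters, 3.48% above and 1.61% below, and in 1.77% of all. The ETS, E-box and cAMP response element shares were lower in the genes below 0 than in tested genes, and rest on 5, 33 and 8 of 498 promoters. The CArG shares rest on 10 promoters above and 4 below, and the share below is near that of tested genes. The FOXO share below rests on 16 promoters and is near that of all promoters. These shares are descriptions with no test, and the motifs were not checked for overlap with one another.

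The promoters of EGR1 and FLNA are shown because both genes lay above the sum and hold CArG boxes, and that of TCP11L2 because it lay below the sum and holds the FOXO motif. The 250 bases of each are given 5′ to 3′ on the strand of the gene, at chr5:138465229-138465478 on the plus strand, chrX:154374635-154374884 on the minus strand and chr12:106302483-106302732 on the plus strand, with the motif in capitals (CArG in EGR1 and FLNA, FOXO, on the opposite strand, in TCP11L2).
EGR1: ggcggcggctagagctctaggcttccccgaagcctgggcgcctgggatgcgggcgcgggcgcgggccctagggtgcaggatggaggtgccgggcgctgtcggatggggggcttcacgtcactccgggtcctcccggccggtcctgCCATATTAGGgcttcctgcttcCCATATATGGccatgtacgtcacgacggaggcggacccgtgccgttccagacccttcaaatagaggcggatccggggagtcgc
FLNA: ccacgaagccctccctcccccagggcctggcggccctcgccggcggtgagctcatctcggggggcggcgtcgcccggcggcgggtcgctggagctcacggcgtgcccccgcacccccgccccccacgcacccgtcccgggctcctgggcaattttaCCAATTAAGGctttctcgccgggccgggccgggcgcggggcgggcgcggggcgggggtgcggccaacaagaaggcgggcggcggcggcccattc
TCP11L2: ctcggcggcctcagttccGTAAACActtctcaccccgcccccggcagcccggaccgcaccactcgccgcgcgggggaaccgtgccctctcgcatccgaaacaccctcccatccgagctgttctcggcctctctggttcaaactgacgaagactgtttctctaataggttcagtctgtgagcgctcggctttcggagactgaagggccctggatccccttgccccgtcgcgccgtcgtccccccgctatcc

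Most of the named genes called below 0 as deposited were higher with imatinib than in DMSO. KLHL24, a Kelch-family substrate receptor and FOXO-responsive gene, had 11.6, 13.2 and 15.2 FPKM in DMSO, 61.2, 74.9 and 66.2 with imatinib, 54.7, 60.6 and 63.8 with JQ1, and 38.5, 68.7 and 53.8 with both. Each treated group lay above DMSO with no overlap, at 5.06-fold, 4.48-fold and 4.03-fold, and the treated groups overlapped one another. The sum predicts 289 FPKM, and the departure was -2.44 ± 0.25 (adjusted p = 7.12e-08, limma; -3.32 rescaled). KLHL38, of the same family, had 1.83, 1.79 and 2.50 FPKM in DMSO, 14.1, 14.0 and 14.0 with imatinib, 9.89, 12 and 12.9 with JQ1, and 4.44, 9.22 and 5.49 with both, at -3.13 (-3.65 rescaled). Here both drugs gave less than either one.

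BMF, a BH3-only protein that antagonises BCL2, had 4.42, 6.17 and 6.58 FPKM in DMSO, 30.8, 32.7 and 33.0 with imatinib, 15.7, 17.6 and 19.7 with JQ1, and 14.5, 26.9 and 18.1 with both. The combination spanned the values of JQ1 alone and stayed under imatinib, against an expected 91.7 FPKM, and the departure was -2.20 (-2.93 rescaled). TCP11L2 had 0.731, 1.02 and 0.820 FPKM in DMSO, 7.61, 9.54 and 8.75 with imatinib, 3.01, 3.57 and 4.51 with JQ1, and 3.08, 5.49 and 4.44 with both, at -2.20 (-2.42 rescaled). FBXO32, the ubiquitin ligase atrogin-1 and a classic FOXO target of muscle wasting, had 0.712, 0.961 and 1.15 FPKM in DMSO, 10.4, 11.2 and 10.6 with imatinib, 2.03, 2.21 and 2.75 with JQ1, and 2.57, 4.29 and 3.19 with both, at -2.23 (-2.48 rescaled). In both of these genes the combination lay near JQ1 alone and under imatinib.

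Other genes lost with JQ1 what imatinib had raised. MB, myoglobin, had 0.330, 0.918 and 1.04 FPKM in DMSO, 9.91, 10.9 and 11.2 with imatinib, 0.178, 0.125 and 0.570 with JQ1, and 0.158, 0.204 and 0.247 with both. Imatinib alone raised it 14.0-fold, and with JQ1 present the 6 libraries lay between 0.125 and 0.570 FPKM. The departure was -2.84 (-3.48 rescaled), and 1 of the 3 JQ1 libraries lay within 2 times the lowest level of that library. FOLR1, a folate receptor, had 8.85, 10.2 and 9.25 FPKM with imatinib, 0.451, 0.815 and 1.16 with JQ1 and 0.446, 0.739 and 0.381 with both, against 2.00, 1.65 and 2.43 in DMSO, at -2.02 (-2.86 rescaled). NDUFA4L2, a mitochondrial protein known as a hypoxia target, had 101, 106 and 102 FPKM with imatinib, 14.7, 18.3 and 22.4 with JQ1 and 10.9, 17.6 and 11.6 with both, against 25.6, 36.1 and 46.4 in DMSO, at -1.98 (-2.97 rescaled). In all 3 genes the combination was below DMSO and did not overlap imatinib.

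LY86, which encodes the RP105-associated protein MD-1, was raised from 0.701, 0.785 and 0.394 FPKM to 6.28, 8.26 and 8.79 by imatinib, had 1.32, 1.74 and 1.62 with JQ1, and had 0.929, 2.04 and 1.47 with both, at -2.50 (-2.76 rescaled). REEP1, a shaper of endoplasmic reticulum membranes, had 46.2, 55.7 and 52.2 FPKM with imatinib, 18.1, 19.8 and 22.5 with JQ1 and 10.9, 18.9 and 15.3 with both, against 9.99, 13.6 and 16.3 in DMSO, at -2.32 (-3.22 rescaled). MVP, the major vault protein, at -1.75 (-2.72 rescaled), and RASA4, at -1.75 (-2.68 rescaled) and with near-identical copies, were further calls below 0.

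**Figure D4:**
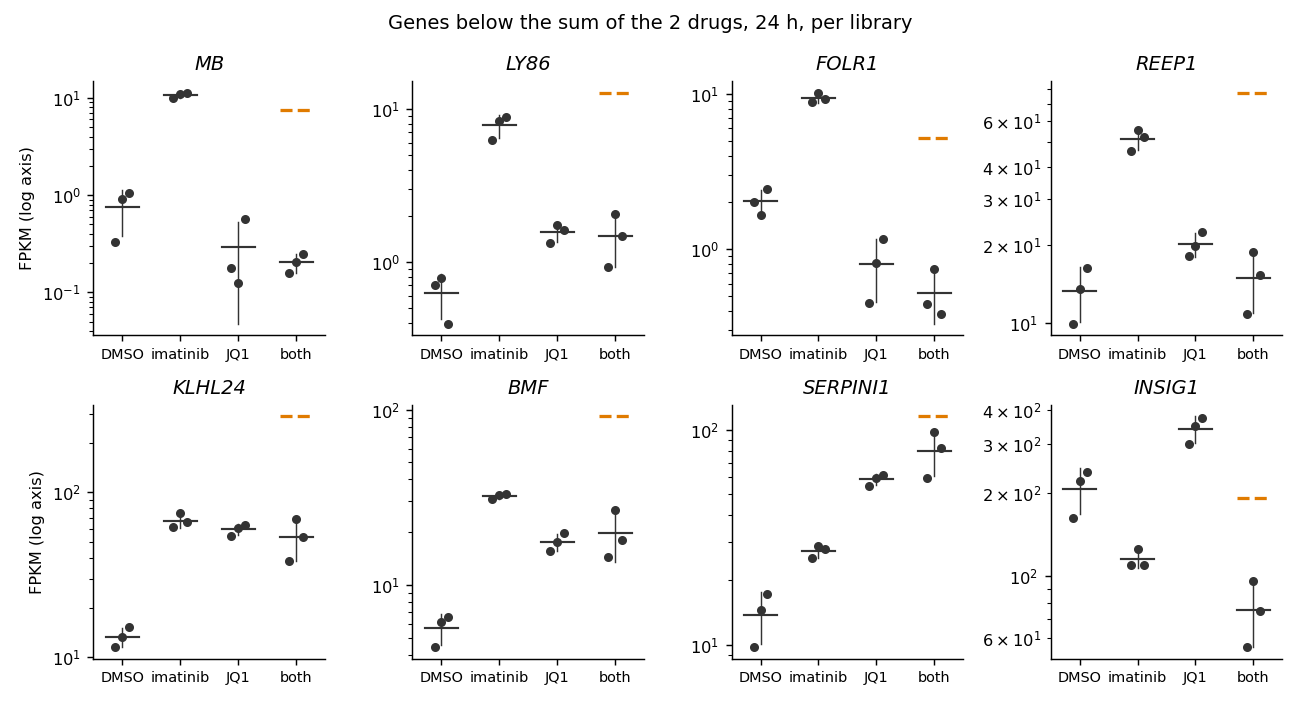
FPKM on a log axis in each library for 8 genes below the sum, by group, with the mean as a bar and the SD as a line; the dashed orange bar is the level expected from the sum. KLHL24 is near the same level under all 3 treatments, MB is high with imatinib alone, and INSIG1 is lowest with both drugs.

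As a list, FOXO targets lay on the low side. Of 25 genes 24 were tested, and 1 was called above and 4 below as deposited (median -0.33), and 0 above and 13 below after rescaling (median -1.02). YPEL3, a growth suppressor, was one of the 4, with 63.2, 65.9 and 62.8 FPKM with imatinib, 22.0, 25.3 and 30.7 with JQ1, 17.3, 30.1 and 19.3 with both and 21.7, 26.3 and 30.2 in DMSO, at -1.52 (-2.47 rescaled). The list of Kelch and atrophy-type genes was drawn from earlier results on these samples, so its direction is no independent evidence: 2 were called above and 8 below of 12 as deposited (median -2.06), and 8 below after rescaling (median -2.51).

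The markers of BET inhibition called below 0 after rescaling that are named here had higher means with JQ1 than with imatinib. HIST1H2AC, a histone gene, had 5.58, 7.74 and 6.40 FPKM in DMSO, 14.7, 18.5 and 15.1 with imatinib, 35.6, 37.7 and 44.5 with JQ1, and 26.6, 47.4 and 35.9 with both. The combination overlapped JQ1 and was called higher than imatinib by 1.11, at a departure of -1.31 (-2.05 rescaled). SERPINI1, neuroserpin, had 9.74, 14.5 and 17.2 FPKM in DMSO, 25.2, 28.8 and 27.9 with imatinib, 54.7, 59.7 and 61.8 with JQ1, and 59.9, 97.3 and 82.6 with both. It was one of few genes whose combination mean was above both drugs, at 5.78-fold over DMSO, and its departure of -0.55 was not called, against -1.42 rescaled. HIST1H2BD and HIST1H1C stood at -0.61 and -0.24, not called, and at -1.44 and -1.23 rescaled.

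Of 13 BET response markers tested, 1 was called above and 1 below as deposited (median 0.00), and 0 above and 5 below after rescaling (median -0.80). HEXIM1, an inhibitor of the elongation kinase P-TEFb and a usual readout of BET inhibition, had 16.6, 19.6 and 25.9 FPKM in DMSO, 5.29, 5.70 and 5.73 with imatinib, 14.6, 17.2 and 17.9 with JQ1, and 7.64, 15.1 and 8.97 with both. Its departure was 1.05 ± 0.28, a call lost without DMSO replicate 3 (0.89), the unnumbered JQ1 library (0.97) or combination replicate 2 (0.78), and it was 0.14 after rescaling. None of the 14 genes of the BET proteins and P-TEFb was called after rescaling (8 above as deposited).

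Cholesterol genes leaned to the low side. INSIG1, a sterol sensor of the endoplasmic reticulum, had 162, 221 and 238 FPKM in DMSO, 110, 125 and 110 with imatinib, 300, 350 and 373 with JQ1, and 55.7, 96.4 and 75.0 with both. Every library with JQ1 alone lay above DMSO while both drugs lay below every other group with no overlap, where the sum predicts 191 FPKM, and the departure was -1.36 ± 0.26 (adjusted p = 0.000107, limma; -2.37 rescaled). The sterol enzymes MSMO1 and CYP51A1 stood at -0.43 and -0.34, not called, and at -1.45 and -1.35 rescaled. Of 21 genes tested in this list, 2 were called above and 1 below as deposited (median 0.33), and 0 above and 6 below after rescaling (median -0.68).

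KIT itself was lowest with both drugs, and its departure was not called on either scale. It had 529, 626 and 777 FPKM in DMSO, 136, 155 and 142 with imatinib, 37.5, 42.4 and 49.3 with JQ1, and 12.8, 19.5 and 16.5 with both. No groups overlapped, and KIT was 4.46-fold lower than DMSO with imatinib, 14.9-fold with JQ1 and 39.6-fold with both. The departure was 0.77 ± 0.25 as deposited and -0.28 ± 0.06 after rescaling, and neither was called because both were smaller than 1. ANO1, the chloride channel used to diagnose GIST, and FOXF1, a forkhead factor of the lineage, stood at 0.92 and 0.83, not called, and at -0.12 and -0.18 rescaled. ANO1 became a call without DMSO replicate 1 (1.05), JQ1 replicate 3 (1.03) or combination replicate 1 (1.06), and FOXF1 without combination replicate 1 (1.01).

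Other lineage genes lay lower. HAND1, a helix-loop-helix factor, had 132, 165 and 205 FPKM in DMSO, 77.7, 79.8 and 77.0 with imatinib, 41.3, 46.1 and 52.7 with JQ1, and 10.4, 19.8 and 11.5 with both, at -0.65, not called, and -1.70 rescaled. ETV1, the ETS factor that cooperates with KIT, had 82.5, 99.6 and 120 FPKM in DMSO, 60.7, 71.0 and 64.1 with imatinib, 24.3, 27.4 and 31.1 with JQ1, and 13.0, 21.1 and 16.7 with both. Its departure was -0.09 ± 0.25 as deposited, with both drugs at the level the sum predicts (17.7 FPKM), and -1.11 after rescaling. PDGFRA, the receptor related to KIT, had 37.0, 43.9 and 55.2 FPKM in DMSO, 37.7, 42.6 and 38.8 with imatinib, 15.3, 17.0 and 20.1 with JQ1, and 7.60, 12.4 and 9.69 with both, at -0.61, not called, and -1.62 rescaled.

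KITLG, the ligand of KIT, stood on the opposite side of the lineage list, with 15.9, 18.5 and 20.5 FPKM in DMSO, 1.08, 1.44 and 1.27 with imatinib, 2.90, 3.53 and 3.62 with JQ1, and 1.56, 2.44 and 2.13 with both, at 2.57 (1.63 rescaled). Every combination library lay above every imatinib library, by 0.42, which was not called. Of the 18 lineage and KIT enhancer genes, 3 were called above and 0 below as deposited (median 0.75), and 2 above and 4 below after rescaling (median -0.32).

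Regulators of apoptosis split. Besides BMF, the mitophagy receptor BNIP3L was called below 0, at -1.11 (-2.07 rescaled), and lost the deposited call without DMSO replicate 1 (-0.93) or combination replicate 1 (-0.92). BCL2L11, the BH3-only protein BIM, overlapped between all groups, with 3.55, 4.26 and 5.73 FPKM in DMSO, 4.61, 5.07 and 4.97 with imatinib, 4.6, 5.17 and 6.00 with JQ1, and 3.43, 5.75 and 4.22 with both, at -0.32, not called, and -1.03 rescaled. BBC3, the p53 target PUMA, stood at -0.83, not called, and -1.70 rescaled, and became a deposited call without combination replicate 2 (-1.05). PMAIP1, the BH3-only protein NOXA, was on the other side at 2.66 (1.83 rescaled). Of 15 BCL2 family genes, 8 were called above and 2 below as deposited and 2 above and 4 below after rescaling, and the rescaled median of 0.07 turned to -0.34 under one total. The deposited count above 0 is near the 46.8% called over all tested genes.

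Among 21 tested p53 targets, 2 were called above and 3 below after rescaling (7 and 0 as deposited). The 7 are a smaller share than the 46.8% called above over all tested genes as deposited. After rescaling 4.89% of all tested genes were called above and 5.83% below. AEN, an apoptosis-linked nuclease that p53 induces, had 18.7, 23.4 and 30.1 FPKM in DMSO, 0.661, 0.652 and 0.739 with imatinib, 0.632, 0.726 and 0.956 with JQ1, and 0.253, 0.521 and 0.287 with both, at 3.48 (2.25 rescaled) with an expected level under 0. TP53INP1 and the kinase PLK2 stood at -0.75 and -0.79, not called, and at -1.56 and -1.5 rescaled, and PLK2 became a deposited call without combination replicate 2 (-1.01).

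**Figure D5:**
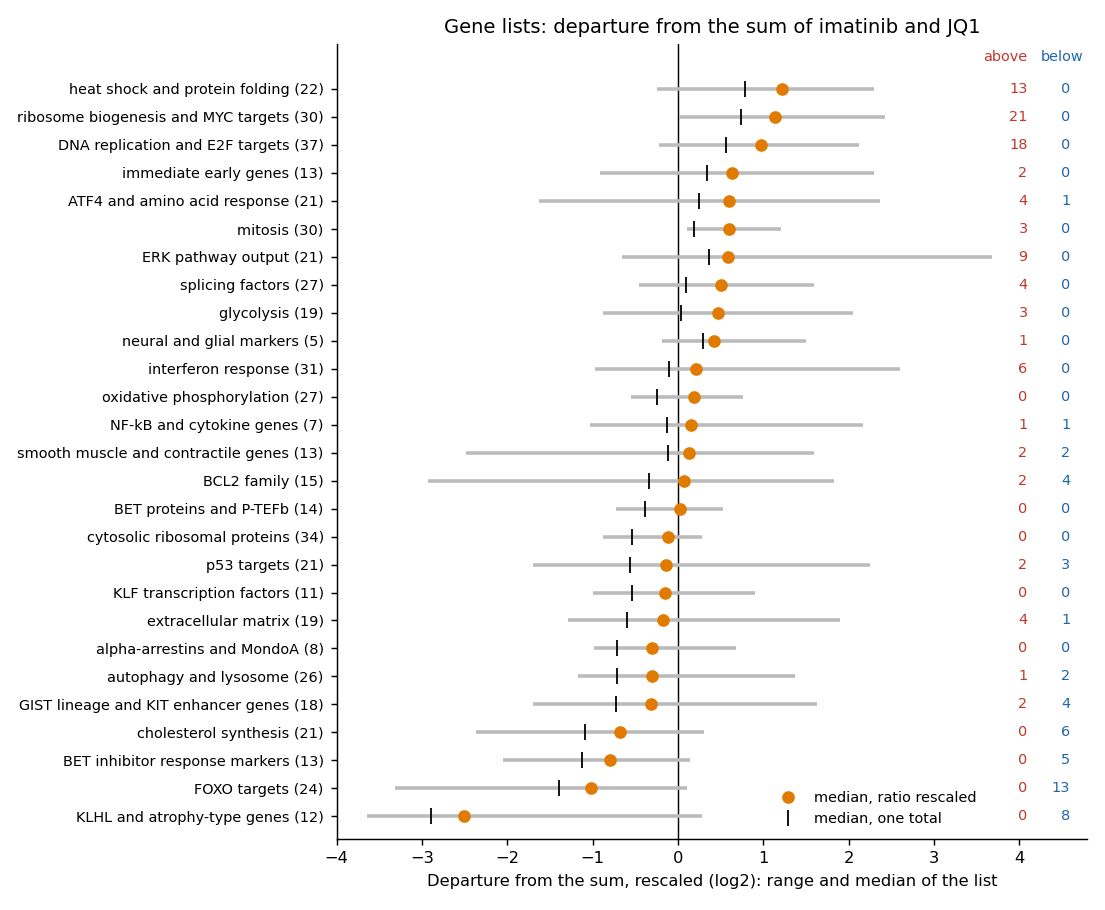
Rescaled departure (log2) for each gene list with 5 or more tested genes: the grey line is the range of its members, the orange point its median, the tick its median under one total, and the numbers count members called above (red) and below (blue) 0. Heat shock (1.22) and ribosome biogenesis (1.14) lie highest, and FOXO targets (-1.02) and Kelch and atrophy-type genes (-2.51) lowest.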

How the data were processed

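RNA from counted GIST-T1 cells received ERCC spike-in transcripts and was sequenced as stranded poly(A) libraries, per the labels' protocols. STAR, Cufflinks and hg19 were used, per the submitters' processing notes, with no versions given. FPKM values came in 1 table that the authors deposited, a column for each library. How these were normalized is not stated in the labels. Read depth is unknown, and only the spread between libraries sets the precision. One JQ1 column carries a number that no title has and stands as a library of that group without a number.

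Values of log2(FPKM + 1) of all 18 libraries were fitted in limma (3.58.1, under R 4.3.3) with one mean per group, with an intensity trend and 12 residual degrees of freedom. The design was taken from the labels. Two-sided p-values were adjusted by Benjamini-Hochberg over 12771 genes. The comparisons share libraries: imatinib, JQ1 and DMSO enter both the single changes and the departure. The added 1 makes fold changes of low genes smaller than the ratio of their values. Rescaled fits divided the values of a library by its median ratio, over genes, to the geometric mean of all libraries, with filters on deposited values. The fits were tested on simulated data. Within-group r was 0.979 to 0.989 over 12 pairs, and 0 columns were identical.

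The interaction, the 30 lists and the naming rule were chosen with earlier results of these data known. The rule names 16 fixed genes, the 10 largest calls in each direction on each scale that reach a group mean of 5 FPKM, and up to 4 called members of each list described. Clone, open reading frame, small RNA, date-like and spike-in names were counted and not named. They made up 293 of the calls above 0 and 15 below as deposited, and 42 and 58 after rescaling. A few other genes that meet the rule are not reported here.

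Alternatives were other pseudocounts, filters, scalings, thresholds and weights, no variance trend, a fit of the 4 groups, a replicate block and leaving out each library. Those that combine rescaling with another pseudocount, filter, threshold, weight or fit were chosen after seeing the data. Promoter sequences come from RefSeq.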

Additional observations from a re-analysis of the deposited data

How the results depend on the processing

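As deposited, 5974 genes were called above 0 and 119 below. Those below became 265 and 297 with added constants of 0.1 and 0.01, 59 with a mean of at least 5 FPKM, 64 with 1 FPKM in every library, and 183 with array weights. A threshold of 0.58 gave 9107 above and 333 below, and a threshold of 2 gave 709 and 19. Ratio rescaling gave 624 and 745, one total 230 and 1850, and one total without MIR1244 487 and 976. Without one library each, calls above 0 ranged from 4593 to 7126 and below 0 from 95 to 155.

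After rescaling, a threshold of 0.58 gave 1917 above and 2044 below, and a threshold of 2 gave 57 and 77. Calls below became 1255 and 1329 with added constants of 0.1 and 0.01, and 482 with 1 FPKM in every library. Without one library each, calls ranged from 607 to 640 above and from 739 to 769 below.

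Under ratio rescaling, one total, and one total without MIR1244, deposited departures changed sign to -0.28, -0.70 and -0.38 for KIT, -0.18, -0.61 and -0.29 for FOXF1, -0.12, -0.54 and -0.22 for ANO1, and -0.01, -0.33 and -0.10 for MYC. Under one total they were -0.27 for CCND1 and -0.24 for HEXIM1. These scalings lower the departure of the median gene from 0.95 to 0.01, -0.35 and -0.08. Without one library each, ETV1 ranged from -0.25 to 0.08. Array weights lost the deposited calls of HEXIM1 (0.76) and BNIP3L (-0.80).

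With the replicate block, 5893 and 128 genes were called as deposited and 638 and 766 after rescaling. Same-numbered libraries of different groups correlated between -0.219 and 0.193 in their deviations over 15 pairs, with 2 over 0.1, so the numbers were not taken to pair the libraries. Libraries with different numbers correlated between -0.202 and 0.205 over 30 pairs.

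With smaller added constants some departures grew by over 1.5 times. With 0.01 the deposited values were 4.37 for PMAIP1, 4.37 for CTGF, 4.54 for OAS2 and -3.80 for LY86, and the rescaled ones were -4.01 for FBXO32 and -4.10 for TCP11L2. SPRY4 shrank to 1.30 as deposited.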
